A study of Homo sapiens with 36 samples.

Results

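The genes described are 9 transcriptional targets of WNT/β-catenin signalling, AXIN2, LGR5, ASCL2, NKD1, RNF43, ZNRF3, SP5, TCF7 and LEF1, together with MYC. They were chosen by name, with earlier results of these data known, and all 10 were found among the 60675 genes of the count table. RNA was sequenced from SW1783, a human astrocytoma line, and HT29, a human colorectal adenocarcinoma line, each as 18 libraries in 6 groups of 3 replicates. All cells were harvested 24 h after the start of treatment. In batch B, cells received vehicle or ACD, an extract of Aconitum carmichaeli Debeaux made in hot water, at 500 µg/mL (high), 100 µg/mL (medium) or 20 µg/mL (low). In batch A, cells received vehicle or wortmannin, which blocks PI3K, at 10 µM. The vehicle was 0.1% DMSO per the labels, and treatments were set against the vehicle libraries from their batch. Each condition is represented by 1 established line per tissue, and the labels do not say whether the replicates were separate cultures, so that p-values measure only the spread between these samples. Per the study's methods, the lines were grown in different media, with carbon dioxide for HT29 only, and plated at different densities. Differences between the lines cannot be told apart from these culture conditions.

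WNT proteins bind Frizzled receptors and the LRP5 and LRP6 coreceptors at the cell surface. Without them, a destruction complex built on APC and AXIN marks β-catenin for degradation, and with them β-catenin enters the nucleus and acts with TCF/LEF factors on target genes. Several targets feed back on the pathway, and in the intestine this programme is known for maintaining the crypt stem cells. HT29 carries truncated APC, so that β-catenin signalling in this line does not depend on WNT ligand. MYC is a classical WNT target in colorectal cells and is also driven by many other growth and stress signals.

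Total counts per library were 18863852 to 26436841 in SW1783 and 15941250 to 33866636 in HT29. A count of 0 allows up to 3 counts, that is 0.0886 to 0.188 CPM (counts rescaled to a common library total) depending on the library, for counting error only. HT29 libraries held the 5 colon epithelial markers tested, with EPCAM at 452 to 585 CPM. SW1783 libraries held mesenchymal markers such as vimentin, at 4076 to 4975 CPM, but of the astrocyte markers GFAP, S100B and AQP4 were at or near 0 and only SLC1A3, a glutamate transporter, was counted, at 5.58 to 50.1 CPM. In the HT29 high dose group, replicate 2 stood apart from the other libraries in its values for several members, which are given below with and without it. It also stood apart across genes in general. Its chi-square per degree of freedom was 64.28 against replicate 1 and 65.12 against replicate 3, beside 9.33 between those. In the main fits all HT29 libraries of batch B, this one included, shared the dispersion estimate of each gene. The share of counts from the mitochondrial genome was 9.19% ± 0.17 (SD, n = 3) at the high and 10.65% ± 0.16 at the medium dose against 5.14% ± 0.13 in the vehicle of SW1783, and 15.49% ± 1.31 at the high dose against 9.46% ± 0.7 in HT29. Vehicle libraries of the 2 batches that shared a replicate number differed less from each other, with a chi-square per degree of freedom of 1.44 to 1.61, than those with different numbers, at 1.96 to 16.1, and whether they came from the same cultures was not tested.

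Gene positions were taken from GENCODE v44 (GRCh38). The feedback regulators are AXIN2 (ENSG00000168646, chr17:65528563-65561648, minus strand), NKD1 (ENSG00000140807, chr16:50548396-50649249, plus), RNF43 (ENSG00000108375, chr17:58353676-58417595, minus) and ZNRF3 (ENSG00000183579, chr22:28883572-29057488, plus). The R-spondin receptor LGR5 (ENSG00000139292) lies at chr12:71439798-71586310 on the plus strand. The transcription factor genes are SP5 (ENSG00000204335, chr2:170715337-170718078, plus), ASCL2 (ENSG00000183734, chr11:2268498-2270588, minus), TCF7 (ENSG00000081059, chr5:134114681-134151865, plus) and LEF1 (ENSG00000138795, chr4:108047545-108168956, minus). Counts are per gene and do not separate isoforms or promoters. Exons of TCF7 overlap those of SKP1, an abundant ubiquitin ligase subunit, on the opposite strand, and exons of MYC overlap those of CASC11. Exons of AXIN2, LGR5, NKD1, RNF43 and LEF1 also overlap those of other annotated genes. Of these, TSPOAP1-AS1, opposite RNF43, had mean normalized counts of 247.8 in the HT29 vehicle and 173.5 at the high dose. The study's methods name a directional library kit, which keeps the strand of the RNA. The strand setting of the counting is not given in the sources used here, so reads from such pairs may not be separable.

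TCF/LEF factors bind the letters CTTTGAT or CTTTGTT, which were searched on both strands of RefSeq promoter windows (250 bases before to 50 after a start site, GRCh38.p14). Windows were held for 4 of the 10 genes, LEF1, RNF43, SP5 and TCF7, with 6 windows in all. Either motif occurred in 7.61% of 35116 windows of the same length in the table. It was found in the SP5 window and in 1 of the TCF7 windows, and in neither window of RNF43 nor in that of LEF1. The E-box CACGTG, the letters bound by MYC and MAX, was in none of the 6 windows and in 7.26% of all windows. A match is a description of the letters and not evidence of binding. The stretches before both start sites are shown, with the motif in capitals, because they are the member windows that held it. The SP5 stretch is chr2:170715087-170715336 on the plus strand, and CTTTGAT begins 109 bases before the start site. The TCF7 stretch is chr5:134123368-134123617 on the plus strand, upstream of an internal start site within the gene, and CTTTGTT lies there on the reverse strand, read as AACAAAG, beginning 50 bases before the start site.
SP5: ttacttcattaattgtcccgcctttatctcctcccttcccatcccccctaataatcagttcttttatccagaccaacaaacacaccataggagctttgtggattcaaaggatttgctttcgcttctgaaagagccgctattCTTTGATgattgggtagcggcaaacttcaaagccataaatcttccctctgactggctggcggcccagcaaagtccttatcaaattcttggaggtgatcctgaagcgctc
TCF7: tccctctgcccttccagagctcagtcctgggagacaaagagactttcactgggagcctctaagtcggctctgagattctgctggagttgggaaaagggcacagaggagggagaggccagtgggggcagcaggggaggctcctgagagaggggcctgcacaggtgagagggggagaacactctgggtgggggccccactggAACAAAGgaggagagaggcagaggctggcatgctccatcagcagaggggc

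In the vehicle, 7 of the 10 genes were higher in HT29 than in SW1783 and none was lower, with an adjusted p-value under 0.05 and a change of more than 1.5-fold, the rule that defines a called gene throughout. Over all genes 55.9% were called in this comparison and 25.6% were called as higher in HT29 and 30.3% as lower. RNF43, a membrane ubiquitin ligase that removes Frizzled from the cell surface, had 4277, 9641 and 6603 counts in the HT29 libraries and 18, 14 and 17 in the SW1783 libraries. Its log2 difference was 8.45 ± 0.23 (SE; adjusted p = 5.45e-295). The receptor LGR5 differed by 5.72 ± 0.26 (adjusted p = 8.88e-104) and the transcription factor SP5 by 6.09 ± 0.55 (adjusted p = 2.7e-28), the latter against only 8 counts summed over the 3 SW1783 libraries. ASCL2, a basic helix-loop-helix factor of intestinal stem cells, had 75, 92 and 71 counts in HT29 and 0 in all 18 SW1783 libraries, so that HT29 was at least 23.4-fold higher in CPM against a floor of 3 counts per library. AXIN2, a scaffold of the destruction complex, was higher in HT29 by 2.80 ± 0.09 (adjusted p = 1.06e-206), MYC by 2.30 ± 0.07 (adjusted p = 1.38e-232) and ZNRF3, the paralogue of RNF43, by 2.06 ± 0.08 (adjusted p = 5.43e-163). TCF7 did not pass the test, at −0.09 with an adjusted p of 0.232. NKD1, which binds Dishevelled and dampens the signal, had a difference of −0.51 (adjusted p = 0.229), and with the vehicles of batch A its difference was −1.01 with an adjusted p of 0.00863. LEF1 was at or near the floor in both lines, with 7 counts over the HT29 and 11 over the SW1783 vehicle libraries.

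Levels between genes were compared as CPM per kilobase of merged exons. These lengths join the exons of all annotated isoforms, from 1485 bases for ASCL2 to 17359 for NKD1. The isoforms expressed were not determined and may be shorter, so the order depends on the lengths used. The HT29 vehicle had RNF43 highest at 44.1 ± 6.1 (SD, n = 3) and MYC next at 37.1 ± 1.02, with overlapping ranges. ZNRF3 at 16.7 ± 1.14, AXIN2 at 13.9 ± 0.813, TCF7 at 7.06 ± 0.406, LGR5 at 5.93 ± 0.338, SP5 at 4.28 ± 0.443 and ASCL2 at 2.29 ± 0.424 followed, each apart from the next. NKD1 was at 0.058 ± 0.00834 and LEF1 at 0.0198 ± 0.00977. The order differed in SW1783, where MYC at 7.45 ± 0.454 and TCF7 at 7.41 ± 0.0778 overlapped at the top. ZNRF3 at 3.94 ± 0.18 and AXIN2 at 1.96 ± 0.0924 came next. RNF43, LGR5, NKD1, SP5 and LEF1 lay between 0.0334 and 0.126, with ranges that overlapped from each gene to the next. In CPM without division by length, NKD1 at 1.41 lay above RNF43 at 0.796 and LGR5 at 0.593 in these libraries.

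**Figure D1:**
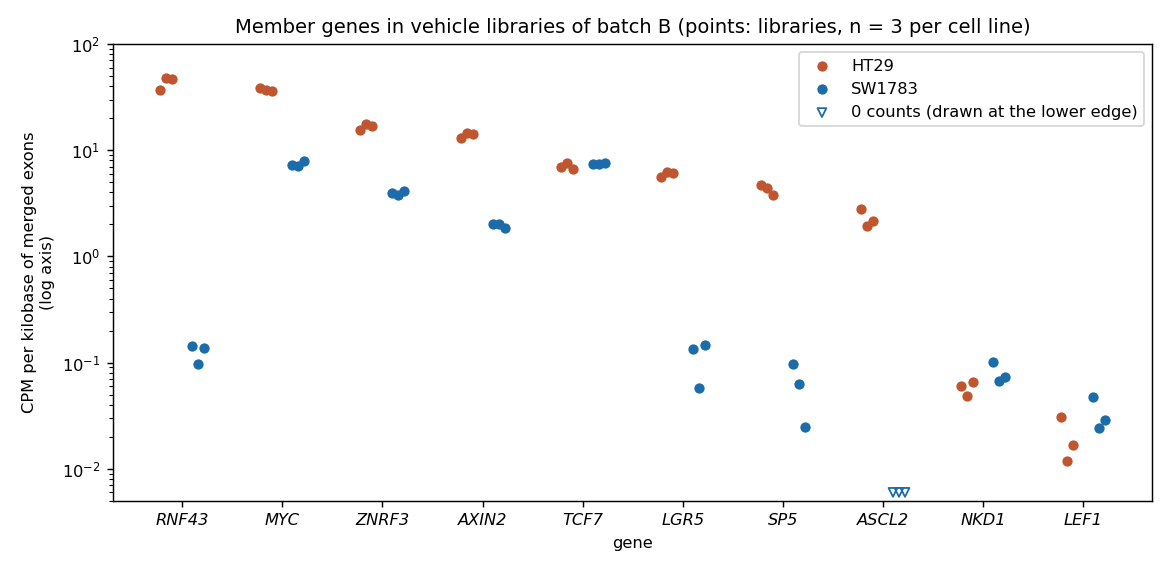
CPM per kilobase of merged exons (log axis) of the 10 genes in the 3 vehicle libraries of batch B of each line, with open triangles for libraries with 0 counts. HT29 points lie above SW1783 points for 7 genes, TCF7 overlaps between the lines and NKD1 and LEF1 are low in both.

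ACD raised MYC and lowered 3 WNT feedback and effector genes in SW1783. At the high dose 1 of the 9 members with an adjusted p-value rose and 3 fell, with 18.2% of all genes called, 8.66% as higher and 9.57% as lower. At the medium dose 1 of 6 rose and 1 of 6 fell (3.81% of all genes called, 2.34% as higher and 1.48% as lower), and at the low dose none of 3 was called (0.118% of all genes called, and 0 of 3 also by the adjusted p-value alone, beside 3.29% of all genes). Since these are bulk libraries, fewer cells of a type and less RNA per cell cannot be told apart.

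MYC (ENSG00000136997, chr8:127735434-127742951, plus strand), a transcription factor that promotes growth and metabolism, had normalized counts of 901, 875 and 988 in the vehicle, 1049, 1011 and 1037 (low), 1465, 1506 and 1506 (medium) and 2945, 2638 and 2807 (high). The 4 groups did not overlap and stood in the order of dose. The change from vehicle was 3.04-fold at the high dose, a log2 fold change of 1.60 ± 0.06 (adjusted p = 1.43e-180), and 1.62-fold at the medium dose, or 0.70 ± 0.06 (adjusted p = 6.54e-32). At the low dose it was 0.17 ± 0.06 and missed the threshold (adjusted p = 0.102). High exceeded medium by 0.90 ± 0.05 (adjusted p = 4.44e-63), the only one of 7 members called in that comparison, in which 10.2% of all genes were called and 4.58% as higher. CASC11, the overlapping antisense gene, had at most a few counts in SW1783 libraries.

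TCF7, which encodes the TCF1 effector of the pathway, had 1512, 1495 and 1536 normalized counts in the vehicle and 1431, 1350 and 1329 at the low dose. At the medium dose it had 1160, 1241 and 1251, and at the high dose 828, 842 and 932. Every dose group lay below the vehicle and below the group of the next lower dose. At the high dose its log2 fold change was −0.80 ± 0.06 (adjusted p = 2.14e-41). The medium dose gave −0.31 ± 0.06 (adjusted p = 4.91e-07), which is under 1.5-fold (29.5% of all genes passed the adjusted p-value alone there), and the low dose gave −0.14 (adjusted p = 0.165). The high dose differed from the medium dose by −0.49 ± 0.06 (adjusted p = 2.98e-15), also under 1.5-fold, where 40.9% of all genes passed the adjusted p-value alone. SKP1, whose exons overlap those of TCF7, changed by −0.13 ± 0.03 at the high dose.

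AXIN2 had 212, 211 and 196 normalized counts in the vehicle and 118, 128 and 153 at the high dose, with no overlap. Its log2 fold change was −0.63 ± 0.14 (adjusted p = 2.91e-05). This lay just past the fold threshold, and without replicate 1 of the high dose the value was −0.55 (adjusted p = 0.00161) and no longer called. The medium dose had 191, 194 and 166 and did not pass the test against the vehicle (adjusted p = 0.376). The low dose had 200, 207 and 188, and DESeq2 gave no adjusted p there. High minus medium was −0.46 ± 0.14 (adjusted p = 0.00432), under the fold threshold.

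NKD1 was low throughout, with 35, 27 and 25 counts in the vehicle and 7, 11 and 9 at the high dose. Normalized, these were 35.9, 23.7 and 26 against 8.1, 9.91 and 8.42, without overlap, and the log2 fold change was −1.68 ± 0.46 (adjusted p = 0.000757). At the medium dose normalized counts of 11.6, 19.6 and 8.48 gave −1.10 ± 0.43 (adjusted p = 0.0389). That call was lost in 7 of 11 alternatives: without vehicle replicate 1, 2 or 3, without medium replicate 1 or 3, with only the compared groups fitted, and with a replicate block. In these the adjusted p was 0.0633 or more, or DESeq2 gave none.

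Of the other members, ZNRF3 had 555, 533 and 587 normalized counts in the vehicle and 484, 496 and 513 at the high dose, a log2 fold change of −0.16 ± 0.09 (adjusted p = 0.107). RNF43 had 18.4, 12.3 and 17.7 against 27.8, 22.5 and 25.3, or 0.65 ± 0.41 (adjusted p = 0.196). With edgeR its adjusted p was 0.0458 and RNF43 was called as higher, the only 1 of 11 alternatives in which it was. LGR5, at 3.74 to 15.6 normalized counts in these groups, did not pass the test, and SP5 and LEF1, at 0 to 8 counts in every SW1783 library, were too low for a change to be detectable at this depth. Vehicle and high dose groups did not overlap for 6 members, and for 60.4% of all genes tested.

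Sums of cell type markers moved with ACD in SW1783. The summed CPM of the 4 mesenchymal markers was 12170.8 to 12457.9 in the vehicle and 10737.2 to 10851.5 at the high dose. Over the 18 SW1783 libraries COL1A2 spanned 514 to 2218 CPM, FN1 4900 to 7718, vimentin 4076 to 4975 and CDH2 348 to 388. Which of them carried the lower sum is not given here. The summed CPM of the 3 immune markers was 12.8 to 14.3 in the vehicle and 3.36 to 5.01 at the high dose, nearly all of it from PTPRC, with CD3E at 0 in every library. The summed CPM of the 4 astrocyte markers, nearly all of it SLC1A3, was 33.4 to 35.3 in the vehicle and 5.58 to 6.09 at the high dose. The part of these shifts and of the mitochondrial share in the member results was not tested.

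**Figure D2:**
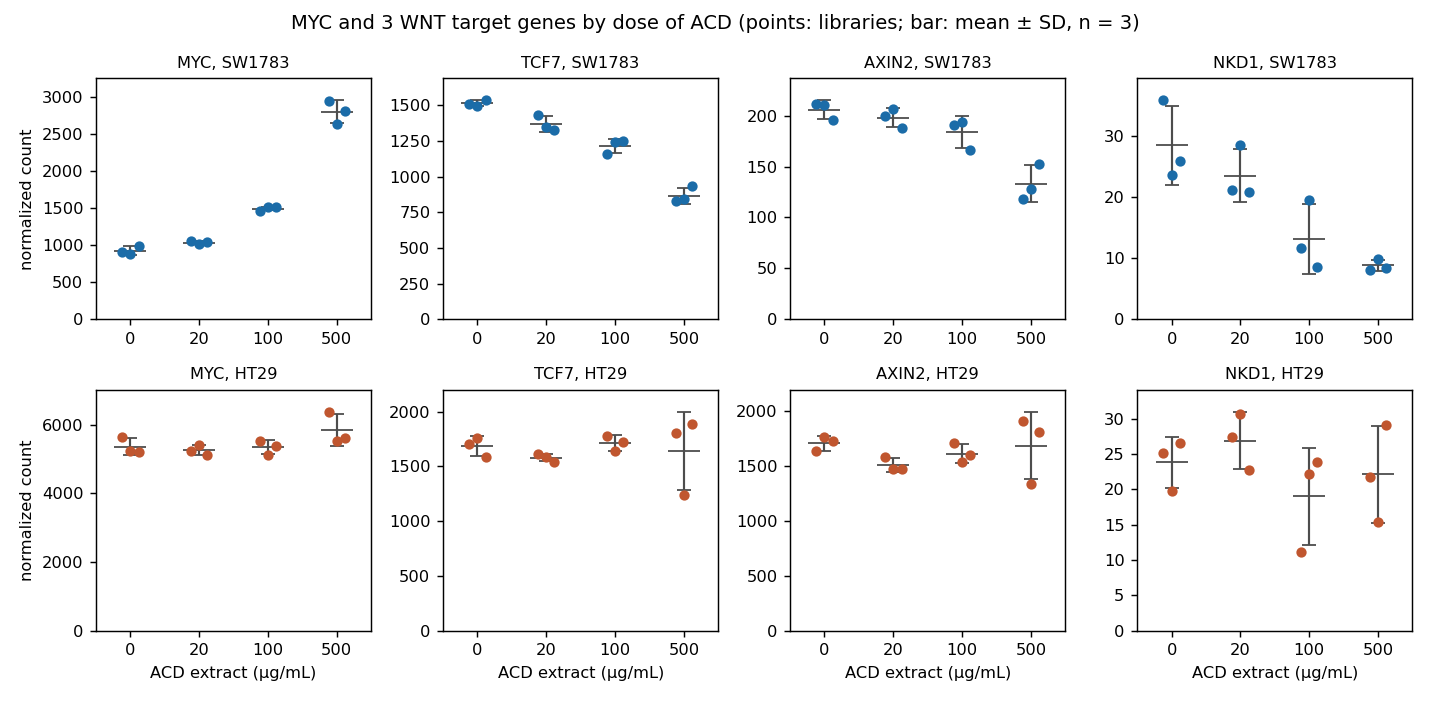
Normalized counts (y) of MYC, TCF7, AXIN2 and NKD1 against the ACD dose in µg/mL (0 is vehicle) in SW1783 (top) and HT29 (bottom), with points for libraries and bars for mean ± SD, n = 3. SW1783 MYC rises from 875 to 988 in the vehicle to 2638 to 2945 at the high dose while TCF7, AXIN2 and NKD1 fall, and HT29 groups overlap with the vehicle at the high dose.

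Genes of the WNT pathway were listed by function from general knowledge, but with earlier results of these data known. The shares called in each list are therefore descriptions only. These genes were read in the same comparison at the high dose in SW1783. Over all genes 18.2% were called, 8.66% as higher and 9.57% as lower. Of the WNT ligands, 2 of 10 tested, a share of 20% that lies near the share over all genes, were called and both were lower, WNT7B at −0.98 ± 0.07 (adjusted p = 3.36e-47) and WNT5A at −0.59 ± 0.04 (adjusted p = 2.4e-48). Of the genes for secretion, receptors and R-spondins 1 rose and 6 fell of 19 tested, with a list median of −0.38 against −0.01 over all genes. The Frizzled receptor genes FZD4, FZD2 and FZD1 changed by −1.15, −1.01 and −0.76, the R-spondin receptor LGR4 by −0.71, and FZD5 by 0.87. Another R-spondin receptor, LGR6, which was chosen after its values were seen, fell from a mean of 117 to 13.5 normalized counts (−3.12 ± 0.30; adjusted p = 2.61e-24). None of 8 secreted inhibitors tested was called. Of 25 genes for the destruction complex and nuclear partners 5 rose and 3 fell: the scaffold AXIN1 rose by 0.85, the corepressor TLE1 by 0.91 and Dishevelled DVL2 by 0.76, while the corepressor TLE4 changed by −1.33 and the β-catenin cofactor BCL9L by −0.91.

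Of 14 other WNT target genes tested, 2 rose and 5 fell, which is 50% of the list beside 18.2% of all genes, with a median of −0.32 beside −0.01 over all genes. CCN4, a matricellular protein gene also known as WISP1, had a mean of 275 normalized counts in the vehicle, 146 (medium) and 28 (high). The high dose gave −3.28 ± 0.20 (adjusted p = 2.78e-61). The growth factor BMP4 changed by −2.37, the receptor TNFRSF19 by −1.66 and the ephrin receptor EPHB2 by −0.61, whereas the transcription factors ETS2 and FOSL1 rose by 1.26 and 0.86. CCN4 and TNFRSF19 were also called at the medium dose, at −0.91 and −0.74.

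Around MYC, all 4 listed genes that MYC is known to repress were called as higher at the high dose in SW1783. Over all genes 8.66% were called as higher. The 4 were the cell cycle inhibitors CDKN1A (1.44 ± 0.07) and CDKN2B (1.48 ± 0.06), the stress gene GADD45A (2.39 ± 0.06) and NDRG1 (2.43 ± 0.05). This list, like the others, was chosen with earlier results of these data known, so the count is a description only. Of 25 genes that MYC is known to activate, 2 rose and 2 fell, which is 16% of the list beside 18.2% of all genes, and the median of −0.01 equalled that of all genes. SHMT2, a mitochondrial serine enzyme, rose by 1.05 ± 0.04, and LDHA, lactate dehydrogenase, and CDC25A, a cell cycle phosphatase, changed by −0.98 and −0.94. TERT, chosen after its values were seen, was the other that rose, at 0.73 ± 0.31 (adjusted p = 0.0393). Of 13 MYC partners and regulators 5 rose and 1 fell. MXD1, MXI1 and MNT, which compete with MYC for MAX, rose by 1.90, 1.14 and 0.71, and MXD4 of the same group changed by −0.92. MYCL and MLXIPL, named after their values were seen, rose by 2.70 ± 0.42 and 2.28 ± 0.61 from means of 10.2 and 4.86 normalized counts.

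**Figure D3:**
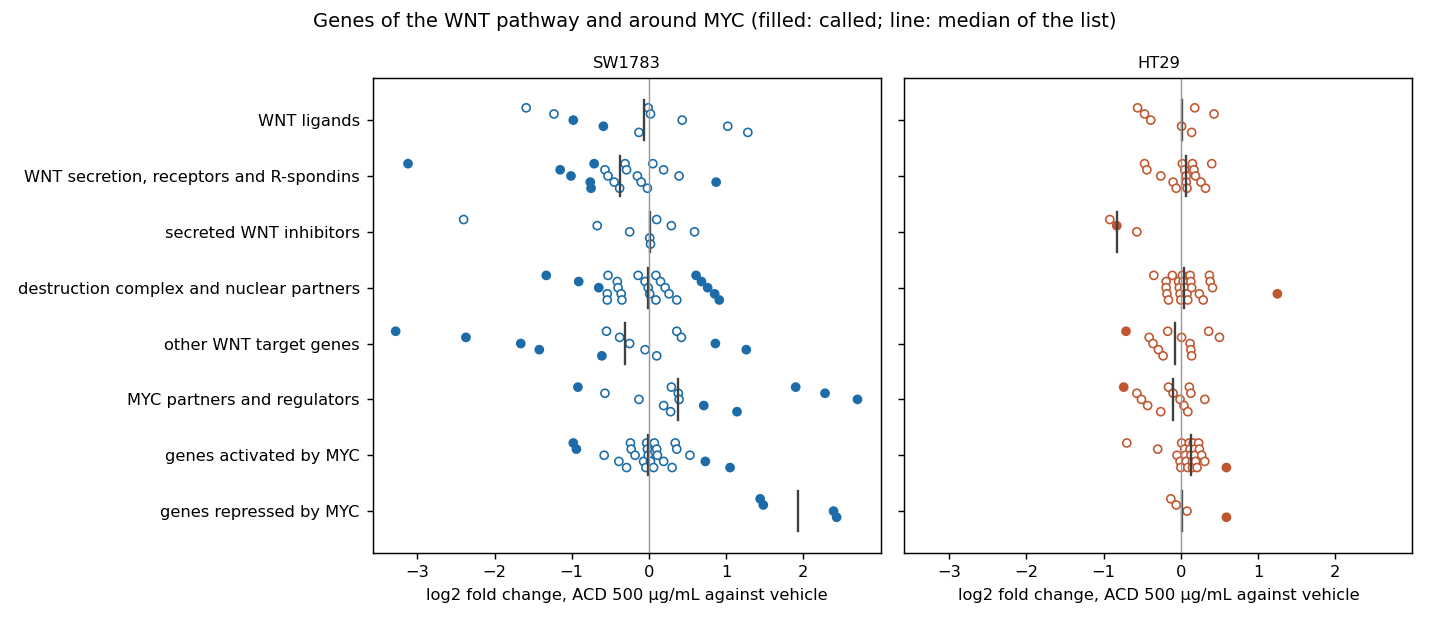
Log2 fold change at 500 µg/mL ACD against vehicle (x) for the genes of 8 lists (rows) in SW1783 (left) and HT29 (right), with filled points for called genes and a line for the median of each list. In SW1783 all 4 genes repressed by MYC lie right of 0, and in HT29 most points lie near 0. The lists were chosen with earlier results of these data known.

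In HT29 no member was called against the vehicle at any dose of ACD, with 9 members tested and 2.92%, 0.827% and 0.321% of all genes called at the high, medium and low dose. By adjusted p-value alone 0 members passed at the high dose (7.62% of all genes), 1 at the medium (2.09%) and 0 at the low (0.649%). At the medium dose SP5 had a log2 fold change of −0.49 ± 0.14 (adjusted p = 0.0303), under the fold threshold. The adjusted p-value passed 0.05 in 4 of 11 alternatives and missed it in 7, at 0.0683 with edgeR, 0.072 with a replicate block and 0.155 to 0.258 without vehicle replicate 1 or 2 or any 1 of the medium dose replicates. Its normalized counts were 234, 211 and 185 in the vehicle, 151, 149 and 147 (medium) and 163, 162 and 153 (high). Both dose groups lay wholly below the vehicle, and the high dose gave −0.40 ± 0.14 (adjusted p = 0.0609). ASCL2 showed the same placement, with 99.3, 67.3 and 75.5 in the vehicle, 52.3, 42.7 and 46.8 (medium) and 46.9, 66.7 and 49.3 (high), but did not pass the test (−0.76 ± 0.25, adjusted p = 0.0859, and −0.58 ± 0.25, adjusted p = 0.153). At the medium dose LGR5 lay wholly above the vehicle, and LEF1, near the floor, wholly below it. The share of all genes placed without overlap in HT29 is not given here, so such placement is a description only.

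MYC in HT29 was at 5648, 5230 and 5204 in the vehicle and 6373, 5522 and 5620 at the high dose, which overlapped (0.12 ± 0.07, adjusted p = 0.355). Replicate 2 of the high dose held the lowest values of its group for AXIN2 (1337 against 1907 and 1809), RNF43 (4192 against 7821 and 7414), ZNRF3 (1980 against 2854 and 2774), LGR5 (460 against 697 and 715) and TCF7 (1236 against 1802 and 1891). With it the log2 fold changes of these 5 were −0.01, −0.02, −0.11, −0.22 and −0.03, and without it 0.12, 0.21, 0.03, −0.05 and 0.13, and none was called either way. LGR5 had 700, 751 and 744 in the vehicle. The medium dose lay above these values but did not pass the test (0.31 ± 0.14, adjusted p = 0.343). Over 11 alternatives that adjusted p ranged from 0.00689 to 0.905. LGR5 was also higher at the medium dose, at 911, 918 and 896, than at the high dose. That difference was −0.53 ± 0.14 (adjusted p = 0.0132), under the fold threshold, and 0.7% of all genes were called there while 1.7% passed the adjusted p-value alone. Without replicate 2 of the high dose it was −0.36, and without replicate 1 or 3 it was −0.61 or −0.64 and called. The adjusted p-value missed 0.05 in 5 of 11 alternatives, at 0.11 with edgeR, 0.359 with only the groups compared and 0.115 to 0.175 without any 1 of the medium dose replicates.

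Of 104 genes of the 8 pathway lists tested in HT29 at the high dose, 3 rose and 3 fell, which is 5.77% beside 2.92% of all genes called. DKK1, a secreted inhibitor, fell by 0.83 ± 0.19 on the log2 scale (adjusted p = 0.000405), the ephrin receptor EPHB3 changed by −0.71 ± 0.12 and the MAX partner MXD4 by −0.74 ± 0.12. NKD2, the paralogue of NKD1, rose by 1.25 ± 0.21 (adjusted p = 3.08e-07), SHMT2 by 0.59 ± 0.06 and CDKN1A by 0.59 ± 0.11. DKK1 and NKD2 were also called at the medium dose, at −0.78 and 0.81. No WNT ligand or receptor gene was called at the high dose.

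The response of the lines to ACD was compared by a test of the difference, on 24 libraries. At the high dose 1 of 9 members rose more and 3 fell more in SW1783, with 14.6% of all genes called, 6.86% as higher and 7.77% as lower. The difference, SW1783 minus HT29, was 1.44 ± 0.09 for MYC (adjusted p = 2.55e-56), −0.82 ± 0.15 for TCF7 (adjusted p = 5.91e-07), −0.66 ± 0.17 for AXIN2 (adjusted p = 0.000956) and −1.70 ± 0.53 for NKD1 (adjusted p = 0.00664). Without HT29 high dose replicate 2 these were 1.39, −0.98, −0.79 and −1.86. The AXIN2 difference fell under the fold threshold without SW1783 high dose replicate 1 (−0.58) or HT29 high dose replicate 1 (−0.56). At the medium dose MYC alone was called, at 0.68 ± 0.09 (adjusted p = 7.22e-12; 3.34% of all genes called, 1.81% as higher), and at the low dose no member was (0.267% of all genes).

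**Figure D4:**
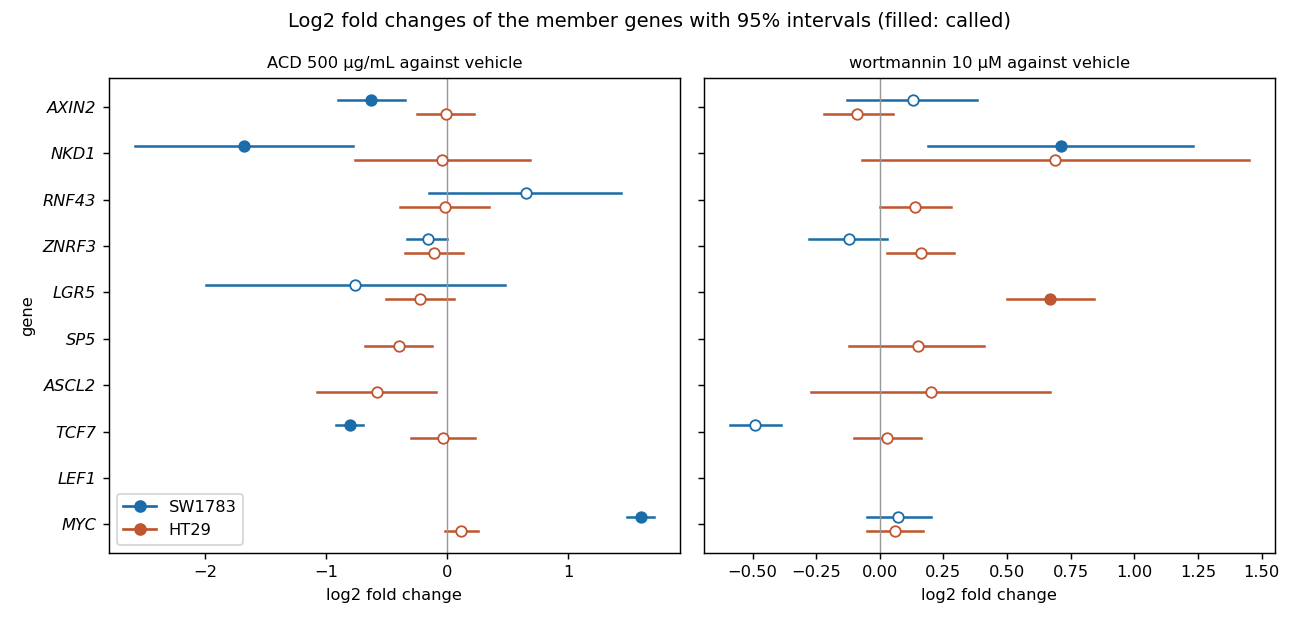
Log2 fold changes (x) with 95% intervals for the members (rows) under 500 µg/mL ACD (left) and 10 µM wortmannin (right), with filled points for called genes. SP5 and LEF1 in SW1783, at 0 to 8 counts, and members without an adjusted p-value are left out. MYC rises in SW1783 under ACD at 1.60 and lies near 0 in the other 3 contrasts.

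Under wortmannin LGR5 rose in HT29 and NKD1 rose in SW1783, and MYC did not pass the test in either line. In HT29 1 of 9 members rose and none fell (2.65% of all genes called, 1.92% as higher). LGR5 had 586, 639 and 654 normalized counts in the vehicle and 1038, 970 and 989 under wortmannin, which is 1.59-fold or 0.67 ± 0.08 (adjusted p = 2.7e-13). NKD1 had 19.6, 22.8 and 14.9 against 32, 29.2 and 32 (0.69 ± 0.39, adjusted p = 0.224). ZNRF3, at 2325, 2537 and 2643 against 2806, 2842 and 2763, did not overlap either but missed the threshold (0.16 ± 0.07, adjusted p = 0.0652).

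In SW1783 1 of 5 members rose under wortmannin and none fell (2.72% of all genes called, 1.74% as higher). NKD1 had 40.2, 41.5 and 43.1 normalized counts in the vehicle and 73.5, 70.2 and 60.4 under wortmannin, or 0.71 ± 0.26 (adjusted p = 0.0241), a call lost in 5 of 10 alternatives: with the replicate block (adjusted p = 0.175) and without vehicle replicate 2 or 3 or wortmannin replicate 1 or 2. TCF7 fell by 0.49 ± 0.05 on the log2 scale (adjusted p = 9.73e-19), under the fold threshold (33.9% of all genes passed the adjusted p-value alone), from 1698, 1726 and 1767 to 1210, 1286 and 1205. MYC, at 1002, 992 and 1060 against 1090, 1059 and 1064, overlapped in part (0.07 ± 0.06, adjusted p = 0.381). By the test of the difference, the responses differed for TCF7, at −0.55 ± 0.07 (adjusted p = 1.18e-13), and for ZNRF3, at −0.31 ± 0.09 (adjusted p = 0.00485), SW1783 minus HT29 and both under 1.5-fold. The ZNRF3 difference did not pass with the replicate block (adjusted p = 0.111). In that test 14.9% of all genes passed the adjusted p-value and 3.36% were called.

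Of the genes of the 8 pathway lists, 7 of 107 tested in SW1783 (6.54% beside 2.72% of all genes) and 3 of 97 in HT29 (3.09% beside 2.65%) were called under wortmannin. In SW1783 the secreted inhibitor SFRP2 rose by 0.89 ± 0.06, the transcription factor PROX1 by 0.72 ± 0.21, the MAX partners MXI1 and MXD4 by 0.76 and 0.64, and LGR6 by 0.62 ± 0.15, whereas ETS2 changed by −0.77 ± 0.06 and NME1, a nucleoside diphosphate kinase, by −0.62 ± 0.04. In HT29 the WNT acyltransferase PORCN rose by 0.60 ± 0.20 and PROX1 by 0.65 ± 0.12. LGR6, named after its values were seen, rose there by 1.06 ± 0.38 (adjusted p = 0.032). By adjusted p-value alone, 22 of 25 genes activated by MYC were lower in SW1783 (median −0.34, with 20.1% of all genes lower) and 18 of 24 in HT29 (median −0.23, with 11.1% of all genes lower), and none was higher in either line, while MYC itself did not pass the test in either. From the vehicle to wortmannin in SW1783, the summed CPM of the 4 astrocyte markers went from 33.3 to 34.6 up to 46.7 to 50.4, that of the 3 immune markers from 13.3 to 14.2 down to 9.76 to 11.6 and that of the 4 mesenchymal markers from 11885 to 12242 up to 14482 to 14717. In HT29 the immune sum was 3.19 to 4.16 in the vehicle and 4.93 to 5.69 under wortmannin. The part of these shifts in the wortmannin results was not tested.

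**Figure D5:**
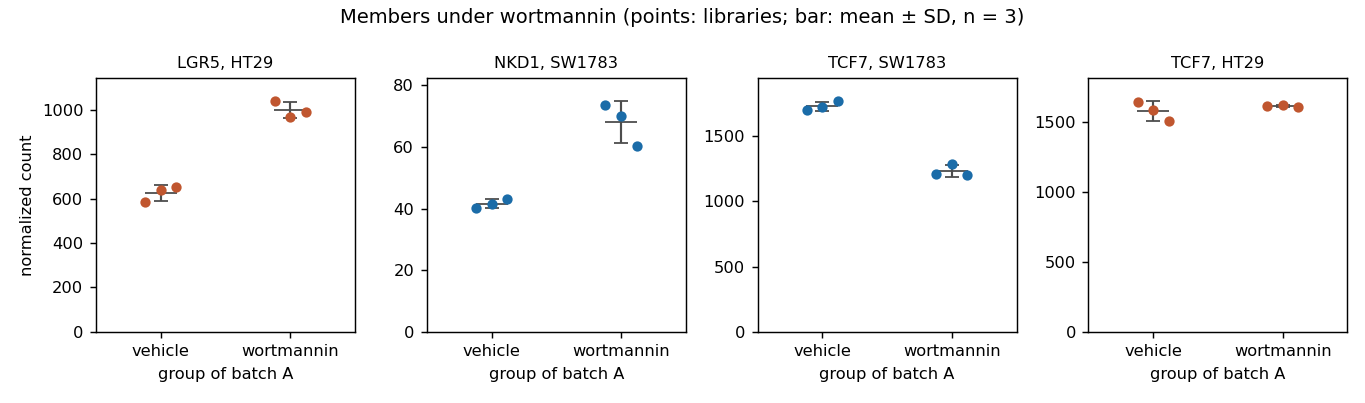
Normalized counts (y) of LGR5 in HT29, NKD1 in SW1783 and TCF7 in both lines in the vehicle and 10 µM wortmannin groups of batch A, with points for libraries and bars for mean ± SD, n = 3. LGR5 in HT29 and NKD1 in SW1783 are higher under wortmannin, and TCF7 is lower in SW1783 and overlaps in HT29.

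Genes with the pattern most like MYC were sought over the 12 batch B libraries of a line, among genes with a mean normalized count of at least 100. In SW1783 they were ICAM1, an adhesion molecule (Pearson r = 0.999), CDCP1, a membrane protein (0.996) and TGIF1, a repressor of TGF-β and retinoid signalling (0.996). Their mean normalized counts in the vehicle, low, medium and high groups were 1137, 1269, 1881 and 3646 for ICAM1 and 524, 595, 1115 and 3116 for TGIF1. In HT29 they included BEST1 (0.877) and SPDEF (0.873). For AXIN2 in HT29 they were ZNF37A (0.927), ENSG00000228327 (0.906) and CARM1 (0.903). The 12 libraries share 4 dose groups and the same scaling, and these correlations describe likeness only. In HT29 the libraries also include replicate 2 of the high dose, which stood apart across genes. It held the lowest AXIN2 value, at 1337 normalized counts, and its part in the HT29 correlations was not tested.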

How the data were processed

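RNA was sequenced by the authors from 36 libraries of SW1783 and HT29. The deposited table holds RSEM expected counts per gene and library, made by the authors from reads trimmed with Trim Galore (0.6.5), aligned with STAR (2.7.3a) and quantified with RSEM (1.3.3), per the submitters' processing notes, and not normalized. The genome is given as GRCh38, with hg19 written beside it, in the study's methods, and the positions given here were used in no test. RSEM divides reads with several positions by a model, which adds uncertainty for overlapping genes.

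Expected counts were rounded to whole numbers, since 8.84% of the values were not whole. Each comparison used DESeq2 1.42.0 (Wald test, two-sided; R 4.3.3) with its size factors and independent filtering, on 12 libraries of a line (batch B), 6 (batch A), 24 or 12 for differences between lines, and 6 vehicle libraries between lines. Adjusted p-values are Benjamini-Hochberg values over all genes of a contrast, and an adjusted p that DESeq2 left out stayed so. Called genes had an adjusted p-value under 0.05 and a change of more than 1.5-fold. Normalized counts are counts divided by DESeq2's size factors. The scripts were tested on simulated data. Alternatives were edgeR 4.0.16, TMM factors, a filter on low counts, only the groups compared, a replicate block, no fold threshold and each of 36 libraries left out in turn.

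The members and lists were chosen with earlier results of these data known. Named pathway genes were at most 4 per list, comparison and direction, with the largest change among called genes with a mean normalized count of at least 100 and groups that did not overlap. Immune, endothelial, mesenchymal, astrocyte and colon markers were read as CPM. The endothelial sum was 0.254 to 2.66 CPM, and the mesenchymal sum was 10737 to 14717 CPM in SW1783 and 0.69 to 3 in HT29.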

Additional observations from a re-analysis of the deposited data

Results flagged for a closer look

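The following results were singled out because a test of the difference between the cell lines, as an interaction term fitted on both, passed an adjusted p-value of 0.05. All are log2 differences of the response, SW1783 minus HT29. At the high dose of ACD they were 1.44 for MYC, −0.82 for TCF7, −0.66 for AXIN2 and −1.70 for NKD1, where the SW1783 changes were 1.60, −0.80, −0.63 and −1.68 and the HT29 changes were 0.12, −0.03, −0.01 and −0.04. At the medium dose the difference for MYC was 0.68. Under wortmannin the differences for TCF7 and ZNRF3 were −0.55 and −0.31, where TCF7 changed by −0.49 in SW1783 and 0.03 in HT29 and ZNRF3 by −0.12 and 0.16. The ZNRF3 difference had an adjusted p of 0.111 with the replicate block. In the AXIN2 difference at the high dose, 2 of 17 alternatives fell under the fold threshold.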

How the results depend on the processing

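In 1766 recomputed log2 fold changes of the members, 1746 kept their side of the threshold, 15 lost the call, 5 gained it and 0 called values reversed. Among the 1746, 71 that were not called in either fit changed sign. Without the fold threshold the number of called members rose from 2 to 3 for the medium dose, from 1 to 3 for high against medium dose and from 1 to 2 for wortmannin in SW1783, from 0 to 1 for the medium dose and for high against medium dose in HT29, and from 0 to 2 for the difference between lines under wortmannin. With only the groups compared, the medium dose in SW1783 had 1 called member in place of 2. Replicate numbers were not treated as pairs: deviations from the group means of same-numbered libraries correlated at −0.461 to 0.326, with all 3 pairs over 0.1 only between the medium and low dose in SW1783 (0.124 to 0.193), which were not compared here, and 13 of 36 libraries correlated best with their own number. With the replicate block, the medium dose in SW1783 had 1 called member (NKD1 lost) and wortmannin in SW1783 had 0 (NKD1 lost), and no other count of called members changed. With 1 library left out, the counts ranged from 3 to 4 for the high dose, 1 to 2 for the medium dose and 0 to 1 for wortmannin in SW1783, 0 to 1 for high against medium dose in HT29, and 3 to 4 and 1 to 2 for the difference between lines at the high and medium dose, with LGR5 called in addition at −1.43 without SW1783 vehicle replicate 2. The other member counts did not change. Depth limited LEF1 in both lines, ASCL2 and SP5 in SW1783 and, with 7 to 11 counts at the high dose, NKD1. Of the group levels in CPM, 60 of 120 moved by more than 1 SD without mitochondrial counts and 18 with TMM. The causes were not tested.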

Other observations

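The vehicle libraries of the lines also differed in the genes upstream of the targets. SW1783 was higher than HT29 in 6 of 9 secreted WNT inhibitors tested and lower in 1, beside 30.3% of all genes called as higher in SW1783 and 25.6% as higher in HT29. SFRP1 and SFRP2 had means of 5032 and 838 normalized counts in SW1783 and 0 in HT29, DKK3 of 4635 and 1.34, and DKK1 of 7371 and 464. The ligands WNT5A and WNT5B had means of 3666 and 532 in SW1783 against 1.81 and 0.447 in HT29, whereas WNT11, at 432 against 11.7, and WNT10A, at 206 against 1.82, were higher in HT29. Of 19 genes for secretion, receptors and R-spondins 10 were higher in SW1783, among them FZD1 (1645 against 49.4) and the acyltransferase PORCN (1418 against 82.2), and 4 in HT29, among them FZD5 (1106 against 107) and LRP5 (5432 against 637).

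Other WNT targets were split between the lines in the same libraries. EPHB2, at 5337 against 49.5, TNFRSF19, at 2532 against 1.73, and CCN4, at 299 against 0, were higher in SW1783. BMP4, at 6864 against 230, MMP7, at 1147 against 5.73, and EPHB3, at 534 against 45.6, were higher in HT29. Of 14 such genes tested, 6 were higher in HT29 and 7 were higher in SW1783, with 55.9% of all genes called in this comparison.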
